A study of Mus musculus with 21 samples.

Results

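The collagen genes of the mouse were followed in RNA sequencing of MII oocytes (mature eggs arrested before fertilisation) and of granulosa cells, the somatic cells that surround the egg. Members were the genes whose symbol is Col, a type number, the letter a and a chain number, which gave 44 of 55335 gene identifiers. Of these, 11 encode fibrillar chains, 9 encode chains of networks (types IV, VIII and X) and 24 encode other types. The study asked how transplanted human umbilical cord mesenchymal stem cells (UC-MSCs) alter the ovary of aged mice, and which sorted cells do so. The mice were ICR females. The Young group was 6 to 8 weeks old and the Aged group was 18 months old, and neither is described as transplanted. The Aged + Unsorted, Aged + LRP1high and Aged + LRP1low groups were 18 months old and were sampled 3 weeks after UC-MSCs had been placed under the ovarian capsule. These cells were left unsorted, or had been sorted for a high or a low level of LRP1, a lipoprotein receptor. Oocytes gave 12 libraries (3 Young, 2 Aged, 2 Aged + Unsorted, 3 Aged + LRP1high and 2 Aged + LRP1low) and granulosa cells gave 9 (1, 2, 1, 3 and 2 in the same order). The labels call the libraries of a group biological replicates. How many mice a library stands for is not stated in the sources used here. The p-values thus measure the spread between libraries, which may not be that between mice.

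A collagen is a rope of alpha chains wound around each other, and each Col gene encodes a chain. Chains are hydroxylated and folded in the endoplasmic reticulum, secreted, trimmed and cross-linked in the matrix. Fibrillar types I, III and V form the fibres of the ovarian stroma and the theca, and stromal collagen is known to build up in the ovary with age. Network type IV is the sheet of the basement membrane that bounds the follicle. Among the others, type VI makes beaded filaments, types IX, XII, XIV, XIX and XXII attach to fibrils, and types XV and XVIII lie in basement membranes.

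Genes that encode partner chains lie side by side on several mouse chromosomes. Col4a4 and Col4a3 sit head to head on chromosome 1 with 71 bases between them, Col4a6 and Col4a5 on the X chromosome with 1308 bases between them, and Col4a1 and Col4a2 overlap by 22 bases on chromosome 8. The Col4a4 to Col4a3 gap is shown because the chains on either side are partners, and stretches near the starts of Col1a2, Col3a1 and Col4a5 because these had high values in the granulosa Young library. The Col3a1 and Col4a5 stretches end at the base before the deposited gene. The Col1a2 stretch lies inside the deposited gene, which starts at 4504814 on chromosome 6. It begins 556 bases after that start and ends at the base before an exon at 4505493, from which another annotated transcript starts, and the RefSeq start used for the motif counts is at 4505618. Sequences are from RefSeq (GRCm38.p6), are read on the strand of the named gene (of Col4a4 for the gap), and overlap no annotated exon. Capitals mark, on either strand, the letters TATAAA of a TATA box, the letters CCAAT of a CCAAT box and the letters GGGCGG of a GC box.
Col1a2, chr6:4505370-4505492, plus strand: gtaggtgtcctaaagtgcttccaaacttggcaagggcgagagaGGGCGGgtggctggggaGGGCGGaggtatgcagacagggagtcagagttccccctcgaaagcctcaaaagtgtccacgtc
Col3a1, chr1:45311388-45311537, plus strand: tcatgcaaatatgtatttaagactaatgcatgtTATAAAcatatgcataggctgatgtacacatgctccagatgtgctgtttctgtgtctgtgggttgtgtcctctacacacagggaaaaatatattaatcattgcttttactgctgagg
Col4a5, chrX:141475235-141475384, plus strand: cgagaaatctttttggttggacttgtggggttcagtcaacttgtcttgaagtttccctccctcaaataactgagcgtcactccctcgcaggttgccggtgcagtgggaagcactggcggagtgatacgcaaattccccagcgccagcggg
Col4a4 to Col4a3 gap, chr1:82586850-82586920, minus strand: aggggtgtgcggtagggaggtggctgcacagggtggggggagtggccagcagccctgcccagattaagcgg
Of the 44 collagens, 35 had an entry in the RefSeq promoter table, with 38 windows. In the 250 bases before the start, TATAAA was found in 5 of the 38 collagen windows and in 12.4% of all 32851 windows, CCAAT in 13 and 33.8%, and GGGCGG in 22 and 32.7%. None of the 3 motifs contains another, and a match is a description of the sequence only.

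Many libraries were low in the markers of their label. The median of 9 oocyte markers (zona pellucida genes, Gdf9, Bmp15 and others) was between 65.2 and 774 FPKM (fragments scaled by gene length and by library size) in 8 oocyte libraries, but 0.805 in Young replicate 1, 10.5 in Aged replicate 1, and 4.76 and 8.32 in the Aged + LRP1low replicates. The granulosa Aged + Unsorted library had an oocyte marker median of 580, and its nearest library over 21767 genes was oocyte Aged + Unsorted replicate 2 (Spearman's rho 0.931, across genes, which are not replicates). The median of 10 granulosa and cumulus markers was 74.9 in the granulosa Young library and 21.4 in Aged + LRP1high replicate 3, and between 0.0482 and 0.8 in the other 7 granulosa libraries. The aligned bases, computed from coverage and FPKM, were 0.278 to 3.40 gigabases in oocyte libraries, lowest in Aged + LRP1low replicate 2, and 0.335 to 1.49 in granulosa libraries. As a second measure, the 570 Vmn1r and Vmn2r genes, receptors of the vomeronasal organ of the nose, were read. At least 1 FPKM was listed for 57.9% of them in oocyte Aged replicate 1 and for 91.9% and 81.9% in the Aged + LRP1low replicates, against 0.351% to 13.3% in the other oocyte libraries.

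In the 12 oocyte libraries the number of collagens at 1 FPKM or more followed the same division. It was 42 of 44 in Aged replicate 1 and 44 of 44 in both Aged + LRP1low replicates, and between 1 and 15 in the other 9. The median collagen was at 5.37, 5.71 and 4.3 FPKM in these 3 libraries, beside 4.11, 5.24 and 3.83 for the median protein-coding gene of the same libraries. In the other 9 the median collagen lay between 0 and 0.824 FPKM and the median protein-coding gene between 0 and 1.17. Of the 44 collagens, 40 had their highest oocyte value in one of those 3 libraries. These 3 listed 27970 to 47920 genes at 1 FPKM or more and the other 9 listed 3135 to 19690. The share of all genes that peaked there was not counted. The part that the library itself has in these levels was not tested. In bulk RNA, fewer cells of a type and less RNA per cell cannot be told apart.

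**Figure D1:**
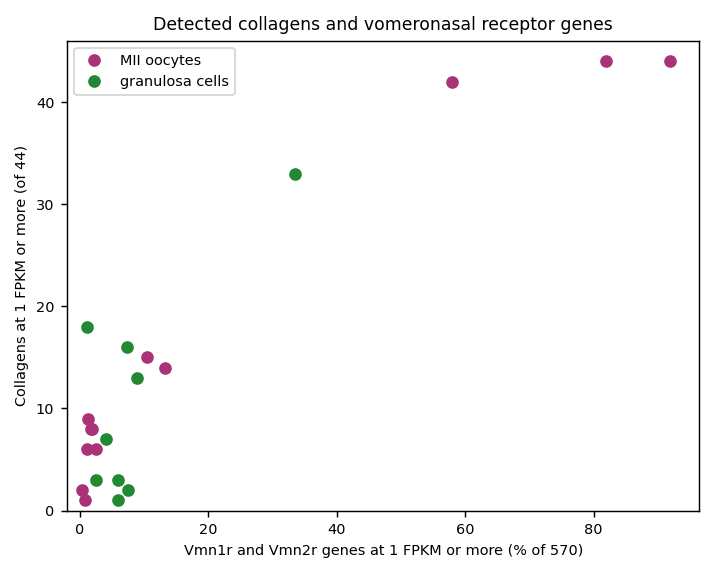
Each point is a library, with the percentage of 570 vomeronasal receptor genes at 1 FPKM or more on the horizontal axis and the number of 44 collagens at 1 FPKM or more on the vertical axis. The 3 points with 42 to 44 collagens are oocyte libraries with 57.9% to 91.9% of the receptor genes listed at that level.

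Summed over all 44 genes, collagen FPKM in oocytes was 25 ± 23.6 in Young (SD, n = 3), 151 ± 140 in Aged (n = 2), 24.1 ± 13.5 in Aged + Unsorted (n = 2), 46.1 ± 13.9 in Aged + LRP1high (n = 3) and 246 ± 22.9 in Aged + LRP1low (n = 2). The wide error of the Aged group comes from replicates at 249 and 51.9. As summed TPM, which is scaled to the same total in every library, the same groups were at 39.3, 308, 53.2, 123 and 490, each over 1.5 times its FPKM sum. Fibrillar chains made up 24% to 32.3% of the collagen sum in Young replicates 1 and 2, both Aged and both Aged + LRP1low libraries. Their share was 1.89% to 6.14% in Young replicate 3, both Aged + Unsorted and all 3 Aged + LRP1high libraries, where the "other" class held 81.9% to 97.3%. These 6 libraries, the Aged replicate 2 library and Young replicate 2 are the 8 with the higher oocyte markers. In them the leading collagens were Col22a1, Col25a1, Col9a3 and Col26a1. Col25a1 encodes a transmembrane collagen known from neurons. It was listed at 0 in Young replicate 2 and was at 1.55 FPKM in Young replicate 3, 1.99 in Aged replicate 2, 4.58 and 6.83 in Aged + Unsorted, and 4.54, 0.201 and 0.0222 in Aged + LRP1high. Col9a3, a chain of the fibril-associated type IX, reached 7.04 in Aged + Unsorted replicate 2 but 0.0915 in replicate 1, so libraries of the same group were far apart. Col9a3 overlaps Tcfl5 on the opposite strand by 234 bases. Reads of the 2 genes cannot be told apart unless strand was used.

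**Figure D2:**
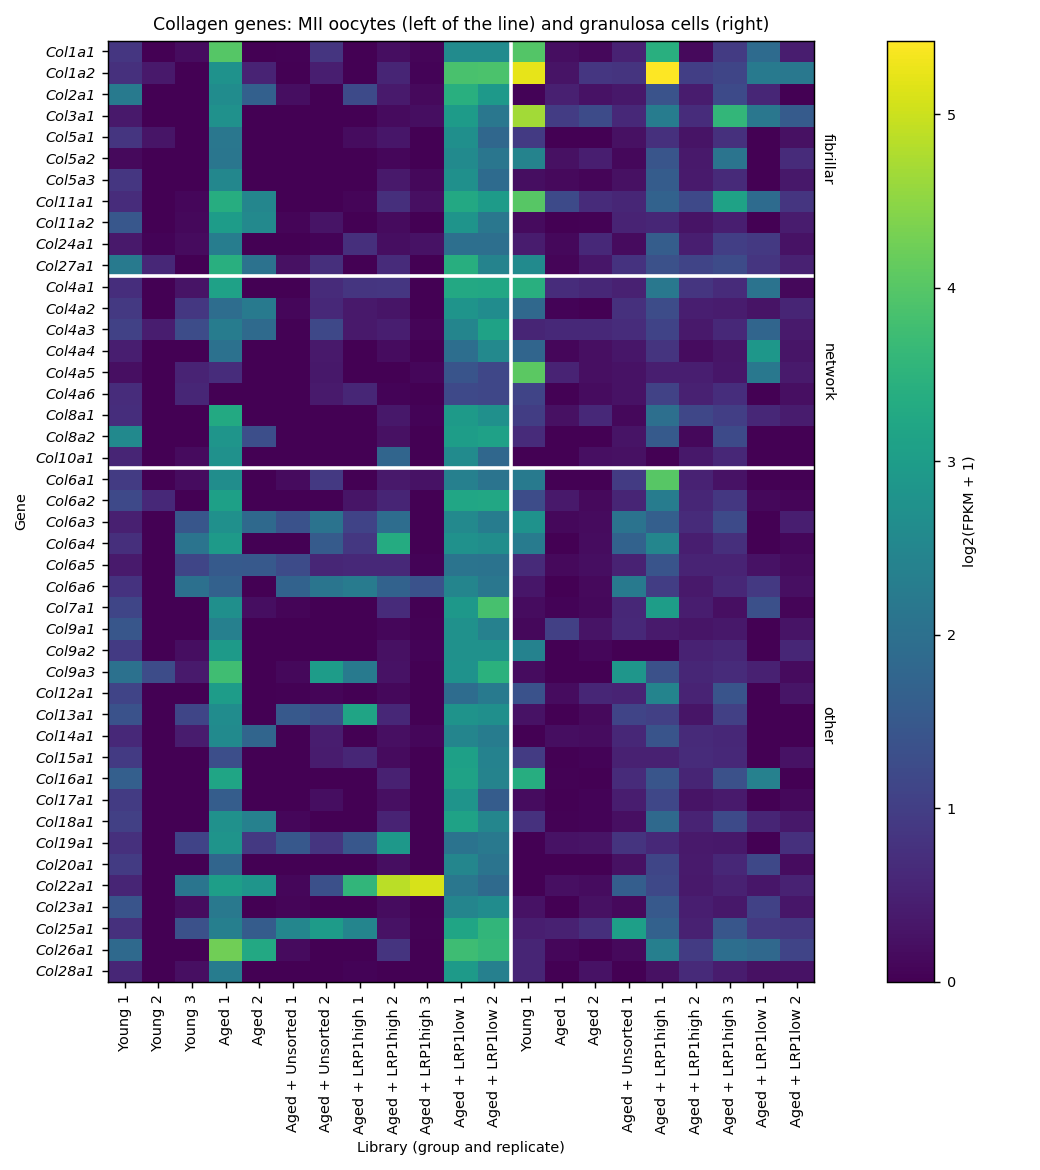
Each row is a collagen gene, grouped into fibrillar, network and other classes, each column is a library, and the colour is log2(FPKM + 1). Nearly all rows are high in oocyte Aged replicate 1 and both Aged + LRP1low libraries, Col22a1 stands out in the 3 oocyte Aged + LRP1high libraries, and Col1a2 in granulosa Young and Aged + LRP1high replicate 1.

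**Figure D3:**
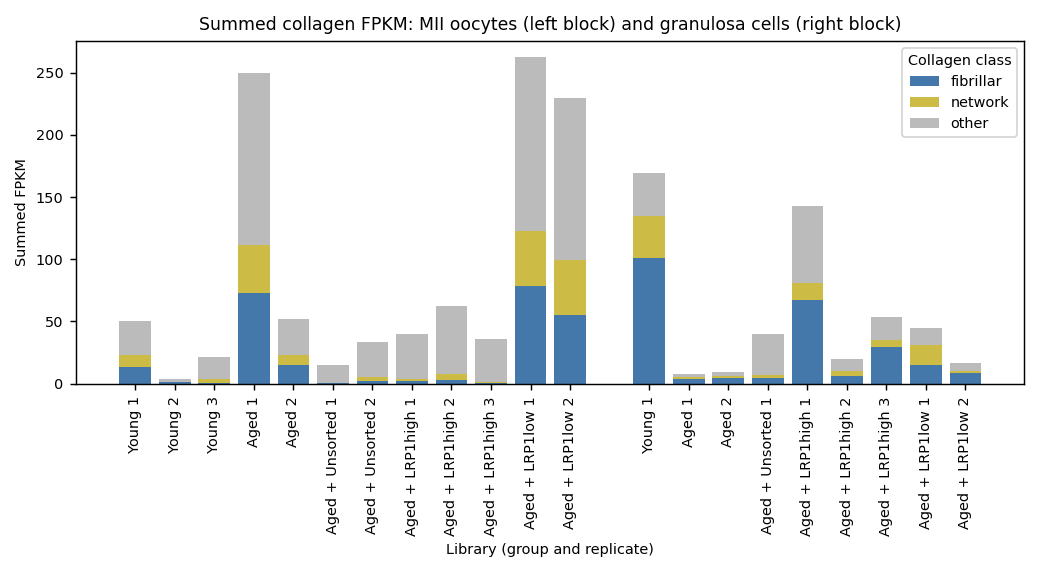
Bars give the summed FPKM of fibrillar, network and other collagens in each library (group and replicate on the horizontal axis). Sums run from 3.4 to 262 in oocytes and from 8.12 to 170 in granulosa cells, and the fibrillar share is largest in granulosa Young, at 59.8%.

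Differences between groups were tested with limma on log2(FPKM + 1), and a gene was called at an adjusted p under 0.05 (Benjamini-Hochberg over all genes tested) and a fold change over 1.5. Genes entered with a mean of at least 1 FPKM over the libraries of a cell type. In oocytes 38 of 44 collagens did so, 10 of 11 fibrillar, 6 of 9 network and 22 of 24 other. Only 20 of 44 would enter without the 2 Aged + LRP1low libraries, so the other 18 were tested through the group in which they were high. All comparisons with Aged share its 2 libraries.

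The comparison between the sorted subpopulations, Aged + LRP1high against Aged + LRP1low, held all 24 collagen calls in oocytes. Of the 38 tested collagens, 23 were called lower and 1 higher in Aged + LRP1high, against a background of 24.8% lower and 1.21% higher among 28004 genes. At an unadjusted p under 0.05, 30 collagens were lower and 1 higher, against 45.9% and 3.17% of all genes. The median log2 change was -2.5 for collagens and -1.89 for all genes. Of the 18 members that entered through Aged + LRP1low, 12 were called lower, which the filter favours, and of the 20 others 11 were lower and 1 higher. With the filter set on the 10 other oocyte libraries, 0 of the 20 collagens were called, with limma adjusted p between 0.155 and 0.163 for the 12 genes, and the background was 0% in either direction among 19064 genes. Unadjusted, 13 of the 20 were then lower and 1 higher, against 22.2% and 5.05% of all genes. Over the 138 vomeronasal receptor genes that could be tested, 34.8% were called lower, with a median of -2.05. All 7 immune, 6 stromal and thecal and 4 endothelial markers were at 1 FPKM or more in both Aged + LRP1low libraries. So were all 10 granulosa and cumulus and all 6 luteal markers, 9 and 8 of the 9 oocyte markers, and 5 and 3 of the 5 red blood cell markers. These libraries listed 47920 and 38934 genes, and 91.9% and 81.9% of the vomeronasal receptor genes, at that level. The full counts are thus not read as a sign of particular cells. The immune sum was 42.5 and 38.1 there and 0.0194 to 1.25 in Aged + LRP1high, where 1 to 6 of the 7 markers were listed at 0, and the stromal sum was 26.1 and 21.2 against 0.0403 to 2.13. Both Aged + LRP1low libraries are among those with low oocyte markers, and this difference between libraries and the transplanted cells cannot be told apart. Leaving out any 1 of the 5 libraries left 0 collagens called, as did a pseudocount of 0.1. With quantile normalization 3 were called, Col22a1 higher and Col1a2 and Col26a1 lower.

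Of the fibrillar genes that entered without the Aged + LRP1low libraries, Col11a1, Col27a1, Col2a1 and Col11a2, which are chains of minor fibrils and of cartilage, were called lower with changes of -2.78, -2.68, -2.58 and -2.43. Col1a1, a chain of type I collagen, the main fibre of connective tissue, was at 0, 0.158 and 0.0555 in Aged + LRP1high against 5.17 and 5.13 in Aged + LRP1low, with a change of -2.52 (SE 0.97) that was not called (limma adjusted p = 0.0677). Col1a2, Col3a1 and Col5a2 entered through the Aged + LRP1low libraries alone, so their calls are a description. The FPKM of Col1a2, the partner of Col1a1, was 0.0109, 0.476 and 0.0389 in Aged + LRP1high and 13.5 and 13.9 in Aged + LRP1low. The log2 change was -3.67 (SE 0.72), while that of Col3a1, the fibre that accompanies type I in soft tissue, was -2.45 (SE 0.78) and that of Col5a2 was -2.32 (SE 0.69).

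In the network class, Col8a2 had the largest change. It encodes a chain of type VIII, known from vessels and the cornea, was listed at 0, 0.183 and 0 in Aged + LRP1high and at 7.14 and 7.65 in Aged + LRP1low, and fell by 2.99 on the log2 scale (SE 0.85, limma adjusted p = 0.0346). The basement membrane genes Col4a1 and Col4a3 fell by 2.71 and 2.5. Col4a1 was at 0.775, 0.806 and 0 against 8.69 and 8.55 FPKM. Its head-to-head neighbour Col4a2 was at 0.29, 0.232 and 0 against 6.01 and 5.25 (-2.5, SE 0.59), and Col8a1, the partner of Col8a2, was listed at 0, 0.278 and 0.0346 against 6.77 and 5.61 (-2.71, SE 0.85). Both were called lower and entered through the Aged + LRP1low libraries. Col4a4, Col4a5 and Col4a6 did not enter the test, and their highest oocyte value was 4.83 FPKM, for Col4a4 in Aged + LRP1low replicate 2.

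Of the other types, Col26a1, a secreted collagen first known from testis and ovary, had the largest change. Its FPKM was 0, 0.763 and 0 in Aged + LRP1high and 12.4 and 11.3 in Aged + LRP1low, a change of -3.41 (SE 0.73, limma adjusted p = 0.0199). Col6a2, a chain of the beaded filaments, was at 0.23, 0.47 and 0 against 8.19 and 8.46 and fell by 2.94 (SE 0.84). The type VI chains Col6a1, Col6a3, Col6a4, Col6a5 and Col6a6 did not pass the test, with changes between -2.01 and -0.52. Col18a1, the basement membrane collagen from which endostatin is cut, fell by 2.63. It overlaps Slc19a1 on the opposite strand by 8825 bases. Col25a1 was at 4.54, 0.201 and 0.0222 against 8.14 and 10.8 and fell by 2.46 (SE 0.82, limma adjusted p = 0.0483). The other 7 genes of this class called lower entered through the Aged + LRP1low libraries and are described only. Col7a1, which anchors epithelium to the tissue below, was at 0, 0.587 and 0.0142 against 6.43 and 13.3 (-3.14, SE 0.80). The type IX chains Col9a1 and Col9a2 had changes of -2.52 and -2.65, and Col14a1 and Col15a1, a fibril-associated and a basement membrane collagen, of -2.28 and -2.5. Col23a1, a transmembrane collagen, had -2.5, and Col28a1, which is known from nerve, -2.64. In these 7 genes the Aged + LRP1high values were at most 0.587 FPKM and those of Aged + LRP1low at least 3.88.

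**Figure D4:**
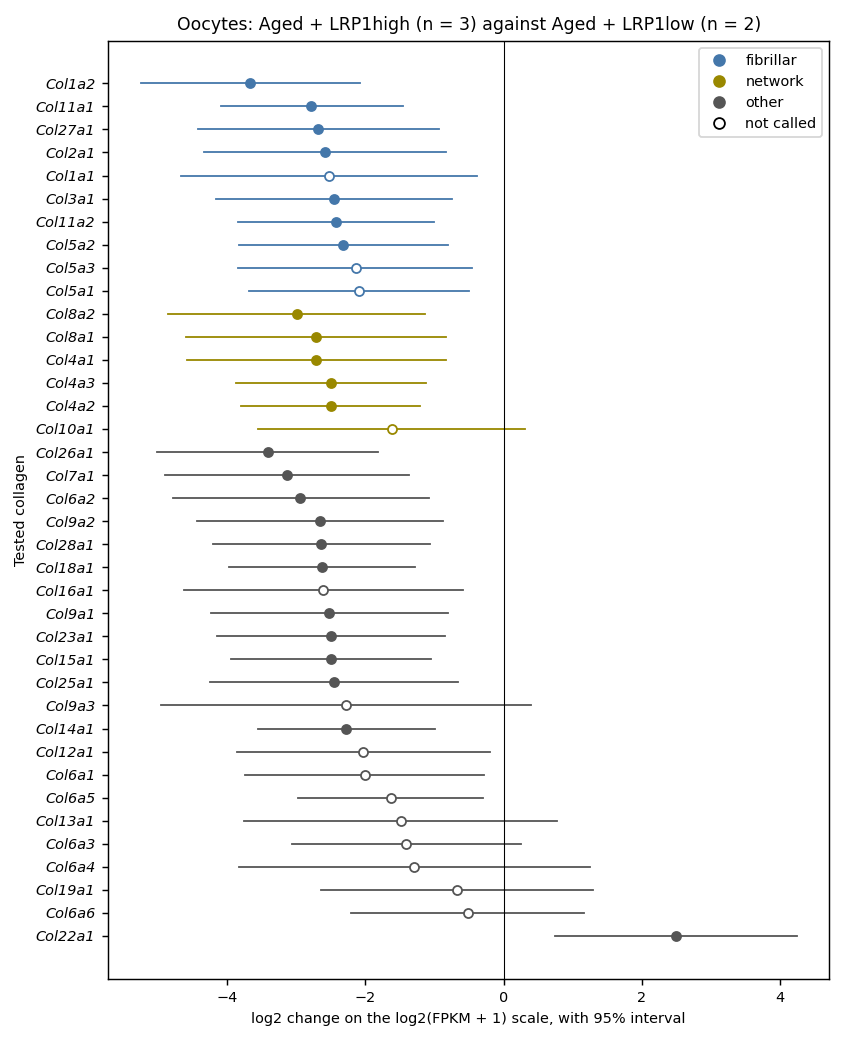
Points give the log2 change of the 38 tested collagens between oocytes of Aged + LRP1high (n = 3) and Aged + LRP1low (n = 2), with 95% intervals from limma; filled points were called. Col22a1, at 2.5, is the 1 gene to the right of zero and Col1a2, at -3.67, lies farthest to the left.

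Col22a1 ran opposite to the rest. It encodes a fibril-associated collagen of tissue junctions, such as those between muscle and tendon, and lies on chr15:71795795-72034227, minus strand (coordinates as deposited). In oocytes of Young mice its FPKM was 0.469, 0 and 3.3, and in those of the Aged group 7.22 and 6.07. It was 0.0731 and 1.49 after unsorted cells, 10.9, 28.2 and 33.2 after LRP1high cells, and 3.45 and 2.67 after LRP1low cells. The 3 Aged + LRP1high libraries thus held the 3 highest oocyte values, the only one of the 44 collagens with this order. The share of all genes with this order was not counted. In replicate 3 Col22a1 made up 91.7% of the collagen sum. Against Aged + LRP1low the change was 2.5 (SE 0.79, limma adjusted p = 0.044). Against Young it was 3.63 (SE 0.71) and against Aged + Unsorted 3.8 (SE 0.79), each with a limma adjusted p of 1, and against Aged 1.58 (SE 0.79, adjusted p = 0.37). The call against Aged + LRP1low was lost when any 1 of the 5 libraries was left out, with adjusted p between 0.0708 and 0.233 and changes between 2.21 and 2.97, with a trended robust fit (adjusted p = 0.0748), and with the filter set on the 10 other oocyte libraries (adjusted p = 0.159). The antisense gene Gm16308 overlaps Col22a1 by 3673 bases and was listed at 0 in all 3 Aged + LRP1high libraries.

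**Figure D5:**
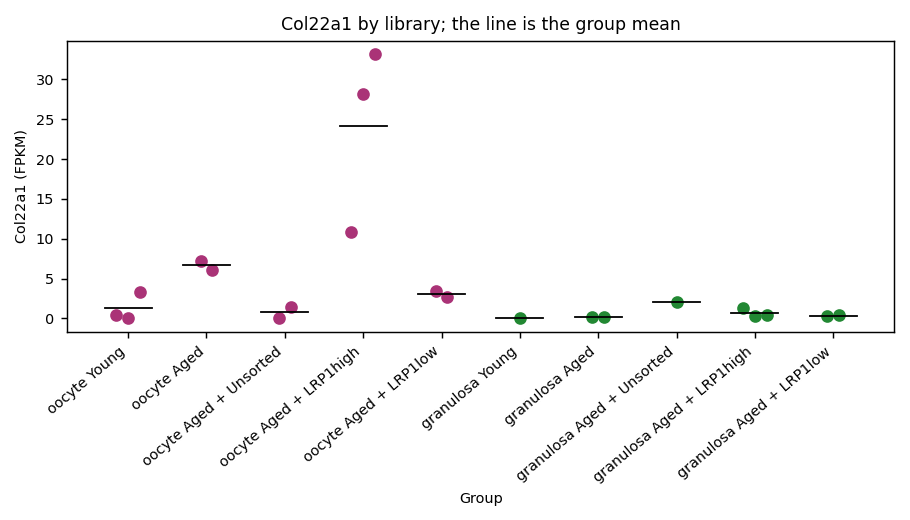
Points give Col22a1 FPKM in each of the 21 libraries by group, and lines the group mean. Oocyte Aged + LRP1high libraries lie at 10.9, 28.2 and 33.2, above the next highest library, oocyte Aged replicate 1, at 7.22.

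Aging and transplantation were compared next. For Aged against Young, 0 of 38 collagens were called, where the background was 0.0964% higher and 0% lower. At an unadjusted p under 0.05, 8 collagens were higher and 0 lower, against 8.43% and 0.214% of all genes. The median change was 1.15 for collagens and 0.94 for all genes. Col26a1 had the largest value. It was at 2.6, 0 and 0 FPKM in Young and at 17.9 and 8.69 in Aged, a change of 3.14 (SE 0.73, limma adjusted p = 0.0979). Col11a1, a minor fibrillar chain, was at 0.603, 0 and 0.076 in Young and at 9.38 and 4.63 in Aged, a change of 2.67 (SE 0.60, limma adjusted p = 0.0883). Its partner chain Col11a2 had a change of 2.26 and Col18a1 one of 2.22. Over the libraries outside Aged and Aged + LRP1low, the mean of each of Col26a1, Col11a1, Col11a2 and Col18a1 was below 1 FPKM. They thus entered the test through groups in which they were high, and their changes are a description. For these 4 genes the Young and Aged values did not overlap. Nor did those of Col14a1, Col4a2, Col4a3, Col22a1, Col6a3, Col6a5 and Col25a1. The share of all genes without overlap was not counted, so the lack of overlap is not read as a trait of collagens. The sums of immune markers did not overlap either, at 54.8 and 41.9 FPKM in Aged (5 and 2 of 7 at 1 FPKM or more) and 9.36, 0.636 and 0 in Young. Those of stromal and thecal markers were 13.8 and 26 in Aged (5 and 1 of 6) and 4.21, 0 and 1.5 in Young. In Aged replicate 2 each sum rested mostly on 1 gene, Cd3e at 35.8 and Cyp17a1 at 25.4. There 5 of the 7 immune and 4 of the 6 stromal and thecal markers were listed at 0. Their part in the collagen values was not tested. Without Aged replicate 2, where Aged replicate 1 remains alone, collagens were called higher. Aged replicate 1 listed 27970 genes at 1 FPKM or more and Aged replicate 2 listed 11047. The share of all genes called in that fit is not given here, so its calls are not read as a trait of collagens. Without the 4 oocyte libraries of low oocyte markers, where Aged replicate 2 remains alone, Col26a1 was called higher.

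For Aged + Unsorted against Aged, 0 of 38 collagens were called (background 0% in either direction). At an unadjusted p under 0.05, 10 were lower and 0 higher, against 7.04% and 1.7% of all genes. The immune sum was at 0.303 and 0.75 in Aged + Unsorted, and the stromal sum at 0.376 and 6.08, below both Aged libraries, as in Aged + LRP1high. The leading genes were again Col26a1 (-3.68, SE 0.80), Col11a1 (-2.93), Col11a2 (-2.60), Col18a1 (-2.52) and Col27a1 (-2.24), and the smallest limma adjusted p was 0.0972. For Aged + LRP1high against Aged, 0 of 38 were called where the background was 0.753% lower and 0.0179% higher. Unadjusted, 9 were lower and 0 higher, against 9.94% and 0.925% of all genes, and the median was -1.23 for collagens and -1.05 for all genes. Col26a1 had a change of -3.49 (SE 0.73, limma adjusted p = 0.054). Col11a2, Col11a1, Col27a1 and Col18a1 followed with -2.73, -2.59, -2.5 and -2.39. In both comparisons these genes and Col26a1 entered the test through the Aged and Aged + LRP1low libraries, in which they were high. Without Aged replicate 2, where Aged replicate 1 remains alone, collagens were called lower in Aged + Unsorted and in Aged + LRP1high. Without Aged replicate 1 none were in either comparison.

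For Aged + LRP1low against Aged, 0 of 38 were called (background 3.09% higher and 0.075% lower). Unadjusted, 2 were higher and 0 lower, against 13.2% and 0.953% of all genes. These were Col1a2, at 5.78 and 0.447 in Aged and 13.5 and 13.9 in Aged + LRP1low (2.23, SE 0.79), and Col15a1, a basement membrane collagen, at 1.48 and 0 against 7.52 and 4.27 (2.09, SE 0.72). Their limma adjusted p-values were 0.186 and 0.173. Without Aged replicate 1, where Aged replicate 2 remains alone, collagens were called higher, and the share of all genes in that fit is not given here. The Aged + LRP1high oocytes were also set beside Young and Aged + Unsorted. In both comparisons 0 of 38 collagens were called, with a background of 0% in either direction. Unadjusted, 1 was higher and 0 lower against Young (2.96% and 0.211% of all genes), and 1 higher and 1 lower against Aged + Unsorted (0.243% and 2.55%). The higher gene was Col22a1 both times, and the lower was Col25a1 with -1.8 (SE 0.82). Collagen medians were -0.16 and 0.04.

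In granulosa cells the fibrillar chains led. Over the 9 libraries Col1a2 ranged from 0.221 to 41.9 FPKM with a median of 1.2, Col3a1 from 0.553 to 24.3 with a median of 1.96, and Col11a1 from 0.495 to 15.1 with a median of 1.33. The collagen sum was 170 in the Young library, 8.93 ± 1.14 in Aged (SD, n = 2), 39.5 in the Aged + Unsorted library, 72.2 ± 63.2 in Aged + LRP1high (n = 3) and 30.8 ± 19.9 in Aged + LRP1low (n = 2). Fibrillar chains held 59.8% of it in Young and 10.9% in Aged + Unsorted. Of the 44 collagens, 32 had their highest granulosa value in the Young library or in Aged + LRP1high replicate 1, and the share of all genes was not counted.

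The Young library, with no replicate and no test, had Col1a2 at 36.3, Col3a1 at 24.3, Col4a5 at 15.7, Col11a1 at 15.1, Col1a1 at 14.8, Col4a1 at 9.66 and Col16a1 at 9.38. In the 2 Aged libraries the highest collagen was at 1.33 (Col11a1) and 1.35 (Col3a1). Stromal markers moved with these levels, all 6 being above 1 FPKM in the Young library and none in either Aged library. Their sum was 131 in Young, and 1.17 and 1.29 in Aged, and Dcn, a proteoglycan that binds collagen fibrils, was at 62.6, 0.561 and 0.332. The median granulosa marker was at 74.9 in Young and at 0.0482 and 0.112 in Aged. The Aged libraries listed 2734 and 2089 genes at 1 FPKM or more and the Young library listed 12128. In Aged the median collagen was at 0.0687 and 0.138 FPKM, beside 0.0862 and 0.131 for the median protein-coding gene. In Young these medians were 0.644 and 0.56. The part of these markers, and of the library itself, in the collagen levels was not tested. The Aged + Unsorted library carried collagens of the oocyte libraries, with Col25a1 at 7.3, Col9a3 at 6.21, Col6a6 at 3.66 and Col6a3 at 3.17. Oocyte Aged + Unsorted replicate 2 had 6.83, 7.04, 3.33 and 3.18 for the same genes.

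Of the 44 collagens, 18 were tested in granulosa cells, 6 fibrillar, 3 network and 9 other, among 13002 genes. The comparisons with Aged rest on its 2 libraries, which listed 2734 and 2089 genes at 1 FPKM or more. For Aged + LRP1high against Aged, 0 of 18 were called, and the background was 0% in either direction. Unadjusted, 3 were higher and 0 lower, against 7.99% and 0.515% of all genes, and the median was 1.08 for collagens and 0.89 for all genes. Col1a2 had the largest change, 1.94 (SE 1.39, limma adjusted p = 0.467). It was at 41.9, 0.996 and 1.2 in Aged + LRP1high and at 0.221 and 0.82 in Aged, so every Aged + LRP1high value was higher but 1 library carried the size. Col26a1 was at 4.04, 0.925 and 2.88 against 0.0627 and 0, a change of 1.7 (SE 0.53, limma adjusted p = 0.458). Col6a1 was at 15.2, 0.424 and 0.2 against 0 in both Aged libraries (1.6, SE 1.16), Col1a1 at 9.65, 0.108 and 0.935 against 0.15 and 0.0818 (1.35, SE 1.04), and Col6a4 had a change of 1.14. Col26a1 and Col6a1 reached a mean of 1 FPKM only with the Aged + LRP1high libraries. Their changes, tested through the group in which they were high, are a description. In Aged + LRP1high replicate 1 the luteal markers summed to 1410 FPKM and the stromal markers to 79.2, against 2.72 and 2.23 in replicate 2 and 105 and 60.9 in replicate 3. Of the vomeronasal receptor genes, 33.5% were at 1 FPKM or more in replicate 1, and 2.46% and 7.37% in the others. Their part in the collagen values was not tested.

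For Aged + LRP1low against Aged, 0 of 18 collagens were called and 0 passed unadjusted, against 0% adjusted and 3.05% higher and 0.738% lower unadjusted of all genes. The largest changes were those of Col1a2 (1.62, SE 1.52), Col26a1 (1.43, SE 0.58), Col4a4 (1.43, SE 0.84), Col16a1 (1.18) and Col1a1 (1.01), with a smallest limma adjusted p of 0.904. Col4a4, at 6.3 and 0.242 against 0.0747 and 0.163, was carried by Aged + LRP1low replicate 1, and was called without replicate 2. Luteal markers summed to 4860 in that library and 53 in the other. For Aged + LRP1high against Aged + LRP1low, 0 of 18 were called and 0 passed unadjusted (0% adjusted, and 4.14% higher and 1.01% lower unadjusted). Col6a1 (1.6), Col12a1 (1.31), Col6a4 (1.19), Col4a4 (-1.15) and Col5a2 (0.97) had the largest changes, with a limma adjusted p of 0.629. Of these, Col6a1, Col12a1 and Col5a2 reached a mean of 1 FPKM only with the Aged + LRP1high libraries. Col4a4 did so only with the Aged + LRP1low libraries. The changes of these genes in either comparison are thus a description.

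Granulosa cells were compared with oocytes over all 21 libraries, with group as a term, which let 31 collagens and 21767 genes enter. Of the 31 collagens, 1 was called lower and 0 higher in granulosa cells, where the background was 6.5% lower and 0.175% higher. Unadjusted, 4 were lower and 1 higher, against 19.4% and 0.809% of all genes. The lower gene was Col22a1, between 0 and 2.08 FPKM in granulosa libraries (median 0.286) and between 0 and 33.2 in oocyte libraries (median 3.37). Oocyte values were 10.9, 28.2 and 33.2 in Aged + LRP1high and at most 7.22 in the other groups. They were above the granulosa values in Aged and Aged + LRP1low too. In Aged + Unsorted the granulosa library, at 2.08, was above both oocyte libraries, at 0.0731 and 1.49. How far the call rests on the Aged + LRP1high group was not tested. The change was -2.06 (SE 0.51, limma adjusted p = 0.0155). It was -2.89, and called, without the 4 oocyte libraries of low oocyte markers and the granulosa Aged + Unsorted library, and it remained called without each library in turn. The call was lost without the filter on low values (limma adjusted p = 0.06), with quantile normalization (-0.79), and when the 7 granulosa libraries of low granulosa markers were left out together with those 4 oocyte libraries (-2.62, limma adjusted p = 0.237). Col3a1 had the largest change toward granulosa cells, 1.21 (SE 0.56, limma adjusted p = 0.222), and was called higher in both fits on fewer libraries, the second of which also called Col11a1 higher, and with quantile normalization. Col19a1 and Col13a1, a fibril-associated and a transmembrane type, had changes of -1.13 and -1.08, and Col1a2 of 0.96. Medians were -0.46 for collagens and -0.63 for all genes.

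Whether the change with transplantation differed between the cell types was tested as an interaction. For Aged + LRP1high against Aged, 0 of 31 collagens were called (background 0% in either direction), while 12 were higher in granulosa cells and 0 lower unadjusted, against 15.8% and 0.221% of all genes. The largest difference was that of Col26a1, 5.19 (SE 1.02, limma adjusted p = 0.0757), followed by Col11a1 (3.66), Col18a1 (3.55), Col27a1 (3.53) and Col1a2 (3.38). Among the fits without 1 library, collagens were called only where an oocyte Aged library was left out, which leaves 1 such library. For Aged + LRP1low against Aged, 0 of 31 were called and 0 passed unadjusted, against 0% adjusted and 2.47% higher and 3.94% lower unadjusted. Col6a2 (-1.83), Col26a1 (1.5), Col13a1 (-1.5), Col5a2 (-1.31) and Col7a1 (-1.31) had the largest differences, with a smallest limma adjusted p of 0.9.

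Genes that fold, trim, bind or accompany collagens were read from 4 lists. Between oocytes of Aged + LRP1high and Aged + LRP1low, 5 of 18 tested genes of folding and modification were called lower, 6 of 11 of cleavage and cross-linking, 4 of 8 receptors and 3 of 12 other matrix genes, with none higher, beside the background of 24.8% lower. P4ha2, a prolyl 4-hydroxylase subunit, was listed at 0 in all 3 Aged + LRP1high libraries and at 17.8 and 8.46 in Aged + LRP1low (-3.74, SE 1.22, limma adjusted p = 0.0465). Itga1, the alpha chain of a collagen-binding integrin, was at 0, 0.168 and 0 against 7.95 and 9.17 (-3.18, SE 0.58, limma adjusted p = 0.0192). P3h3, a prolyl 3-hydroxylase family member, fell by 3.06. Of the 49 tested genes of the lists, 18 entered through the Aged + LRP1low libraries and hold 13 of the 18 calls, and 5 of the 31 others were called. Among the 13 are Bmp1, which cuts procollagen ends (-3.08), and Serpinh1, the collagen chaperone HSP47 (-2.9), with means of 0.803 and 0.893 FPKM over the 10 other oocyte libraries. P3h3 was the 1 gene of the lists called for Aged + LRP1high against Aged, at 0, 0.285 and 0 against 21.4 and 42.4 (-4.84, SE 0.78, limma adjusted p = 0.0379). Of all genes, 0.753% were called lower in that comparison. In granulosa cells 13, 5, 4 and 8 genes of the lists were tested and none was called in the 3 comparisons. Unadjusted, 1 passed, higher in Aged + LRP1low than in Aged, against 3.05% of all genes. In the other 5 oocyte comparisons none of the 49 tested genes of the lists was called. Unadjusted, 6 were higher in Aged than in Young, against 8.43% of all genes. In Aged + Unsorted, 7 were lower and 1 higher than in Aged (7.04% and 1.7% of all genes). In Aged + LRP1low, 4 were higher than in Aged (13.2%). In Aged + LRP1high, 1 was higher than in Young (2.96%), and 0 differed from Aged + Unsorted (0.243% higher and 2.55% lower). In the interaction of Aged + LRP1high 11 of 47 passed unadjusted, all higher in granulosa cells, against 15.8% of all genes. In that of Aged + LRP1low 1 was higher and 2 were lower, against 2.47% and 3.94% of all genes. In either interaction 0 were called. Between cell types, 6.5% of all genes were called lower in granulosa cells. Of the lists, the laminin chain Lamb1 was called lower there (-3, SE 0.67, limma adjusted p = 0.00809). It was at 1.27 to 102 FPKM in oocytes and at 0 to 7.5 in 8 granulosa libraries, and at 80.9 in granulosa Aged + Unsorted.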

How the data were processed

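RNA of 12 oocyte and 9 granulosa cell libraries was analysed, grouped by the labels of the libraries. Per the labels, reads were processed with HISAT2 2.2.1 and StringTie 1.3.3b. The authors deposited, for each library, FPKM, TPM and coverage per gene, and no counts were used here, so no counting intervals are given. TPM, as deposited, adds up to a fixed total in each library. Coverage, a signal the authors deposited too, is the average depth of reads along a gene. The labels name the build mm9, but 54587 of 55335 identifiers, 54577 of them with the same coordinates, are those of GENCODE M21 on GRCm38, so coordinates are given on GRCm38. Sources differ on the library kit (a stranded kit or Smart-seq2), and use of strand in the quantification is not given in the sources used here. Between 4 and 21 identifiers repeated within a file were summed.

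Aligned gigabases were taken from coverage divided by FPKM, as the median across 21693 genes of 1 transcript and 1 exon. FPKM was tested as log2(FPKM + 1), which understates the change of low genes, with limma 3.58.1 (lmFit, eBayes, R 4.3.3, two-sided), on genes with a mean of at least 1 FPKM over the libraries of the fit. All groups of a cell type entered 1 model, and all 21 libraries entered the models across cell types. Calls needed a Benjamini-Hochberg adjusted p under 0.05 and a fold change over 1.5. The fit code was run on simulated data with planted changes, raised levels and a capped spread. This checks the code only, not how the fit behaves on these libraries. Widely expressed genes are also listed at 0 in some libraries, so a 0 is reported as listed only. Tables and figures used Python 3.11.15, pandas 2.3.3, NumPy 2.4.6 and Matplotlib 3.10.9.

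Named genes were the collagens called in any comparison, the 3 highest of each class in each cell type, up to 5 tested collagens with the largest change per comparison, head-to-head pairs, and up to 5 called genes of the processing, receptor and matrix lists per comparison. The members, lists and rules were chosen with earlier results of these data known. Marker lists of immune, endothelial and red blood cells were also read. In the 9 granulosa libraries their sums were 1.24 to 19.4, 0.361 to 31.3 and 0 to 63.5 FPKM, and in oocytes 0 to 54.8, 0.192 to 26.1 and 0 to 28.2. Alternatives covered the pseudocount, the filter, quantile normalization, TPM, a trended robust fit, the groups in the model, a replicate block, each library left out, and, chosen after seeing the data, libraries low in the markers of their label left out and a filter on the 10 oocyte libraries other than Aged + LRP1low. No set test was run.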

Additional observations from a re-analysis of the deposited data

How the results depend on the processing

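The 23 genes lower and 1 higher in oocytes of Aged + LRP1high against Aged + LRP1low became 0 with a pseudocount of 0.1, with the replicate block and with the filter set on the 10 oocyte libraries other than Aged + LRP1low (an alternative chosen after seeing the data), and 3 with quantile normalization. They became 34 lower and 1 higher without the filter on low values, 31 and 1 with TPM, 33 and 1 with only the groups compared, and 26 and 0 with a trended robust fit. The share of all genes under these settings, and in the fits without 1 library given below, is not given here. Larger counts are thus not read as a trait of collagens. With a minimum mean of 10 FPKM no collagen entered any of the 13 fits, so that alternative gives no value. Without 1 library each, the number of collagens called ranged from 0 to 25 for Aged against Young, 0 to 28 for Aged + Unsorted against Aged, 0 to 29 for Aged + LRP1high against Aged, 0 to 12 for Aged + LRP1low against Aged, 0 to 1 for Aged + LRP1high against Young, and 0 to 0 for Aged + LRP1high against Aged + LRP1low or Aged + Unsorted. In granulosa cells it ranged from 0 to 1 for Aged + LRP1low against Aged and stayed at 0 in the other 2 comparisons. Between cell types it stayed at 1, and for the 2 interactions it ranged from 0 to 21 (Aged + LRP1high) and stayed at 0 (Aged + LRP1low).

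The next counts are also given without the share of all genes under the same setting. Without the filter on low values, 5 collagens were called for Aged against Young, 5 for Aged + Unsorted, 6 for Aged + LRP1high and 3 for Aged + LRP1low against Aged, 0 between cell types, and 7 and 1 for the interactions of Aged + LRP1high and Aged + LRP1low. With TPM the numbers were 4, 4 and 5 for the first 3 of these, 2 between cell types and 6 for the interaction of Aged + LRP1high. Without the 4 oocyte libraries of low oocyte markers, 1 was called in each of Aged against Young, Aged + Unsorted against Aged and Aged + LRP1high against Aged. Without these and the granulosa Aged + Unsorted library, 2 were called between cell types and 1 for the interaction of Aged + LRP1high, and without these and the 7 granulosa libraries of low granulosa markers 2 were called between cell types. Summed TPM in place of summed FPKM was 39.3 in oocyte Young, 308 in Aged, 53.2 in Aged + Unsorted, 123 in Aged + LRP1high and 490 in Aged + LRP1low, and 286 and 65.3 in granulosa Young and Aged + Unsorted. Changes of sign among the named genes were limited to Col14a1 (0.16 with quantile normalization, Aged + LRP1high against Aged + LRP1low), Col10a1 (-0.24 to 0.65 without 1 library each, negative without oocyte Aged + LRP1high replicate 2, against Young), Col12a1 (-0.13 with quantile normalization, granulosa Aged + LRP1high against Aged) and Col16a1 (-0.02 to 2.37 without 1 library each, negative without granulosa Aged + LRP1low replicate 1, against Aged). The causes were not tested beyond the fewer libraries or genes that an alternative leaves.

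The replicate numbers of the labels were not found to pair the libraries. Deviations of same-numbered libraries correlated at -0.436 to 0.441 in oocytes (4 of 21 pairs over 0.1) and -0.076 to 0.256 in granulosa cells (1 of 6), and the replicate block moved no count other than that of Aged + LRP1high against Aged + LRP1low to the other side of the threshold. Groups of 1 to 3 libraries limit every comparison. Where leaving out a library leaves a group with 1 library, that library is assumed to vary like the other groups.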
